A study of Mus musculus with 8 samples.

Results

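Levels of 7 genes of cellular cholesterol control, Srebf2, Scap, Insig1, Insig2, Stard4, Sqle and Idi1, were followed in the livers of 8 mice by single-nucleus RNA sequencing. The genes were taken by symbol, 7 of the 32285 genes in the deposited matrices, and each symbol named 1 gene identifier. They fall into 4 regulators (Srebf2, Scap, Insig1, Insig2), 1 sterol carrier (Stard4) and 2 enzymes of cholesterol synthesis (Sqle, Idi1). UMIs (unique molecular identifiers, which tag single captured RNA molecules) were summed per mouse over all barcodes with at least 300 detected genes, and separately over barcodes gated by marker genes of a cell class.

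All 8 animals were male DIAMOND mice, bred from 129A1/SvIm and C57BL/6J, a cross that develops fatty liver disease and liver tumours on a Western diet (WD), and every group received that diet, a high-fat food with fructose and glucose in the water. In the reversal groups the mice were returned to standard chow after 36 weeks of WD: 2 of them bore liver tumours (RD tumour) and 3, described by the labels as normal, had no detectable tumour (RD no tumour). The 3 WD tumour mice stayed on WD for 48 weeks and bore tumours. Livers were snap-frozen. The labels do not say whether the sampled piece held tumour, and they disagree with the series text on age: the former give 48 weeks of age at the end, the latter starts the diets at 2 months and counts 48 weeks on WD. A group with no reversal and no tumour was not analysed here, so diet and tumour cannot be told apart between RD no tumour and WD tumour.

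The libraries held between 17948627 UMIs (WD tumour 1) and 34363108 UMIs (RD tumour 1). RD tumour 1 stood apart: it had 20000 barcodes against 6049 to 10868 in the others, and its log2 levels correlated across 10466 genes with those of the other mice at Pearson r = 0.502 to 0.720, where pairs of the other 7 had r = 0.815 to 0.979 (across genes, which are not independent replicates). Summed over 5 neutrophil markers, RD tumour 1 had 2245 CPM (UMIs scaled to a total of 1000000), RD no tumour 1 had 601 CPM and the other 6 had 27.8 to 163 CPM. The sum of 12 hepatocyte markers was lowest in RD tumour 1, at 17803 CPM, against 22466 to 31104 CPM in the others. RD tumour 2 was the only library with more than 10 CPM of 5 pancreatic acinar markers (279 CPM, against 3.43 to 9.40 CPM). Of 78694 distinct barcode sequences, 748 occurred in more than 1 library. Results that rest on RD tumour 1 are given with and without it.

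Srebf2 encodes SREBP2, a transcription factor held in the endoplasmic reticulum membrane. When membrane sterol is low, SCAP escorts SREBP2 to the Golgi, where proteases release its active fragment, which switches on genes of cholesterol synthesis and lipoprotein uptake. When sterol is plentiful, INSIG1 and INSIG2 hold SCAP in the endoplasmic reticulum. Insig1 is itself an SREBP target, whereas a liver transcript of Insig2 is known for being raised in fasting and lowered by insulin. STARD4 carries cholesterol between membranes and is another SREBP2 target. Isopentenyl-diphosphate isomerase (Idi1) acts early, on isoprenoid units, and squalene epoxidase (Sqle) makes the first oxygenated step towards the sterol ring. Srebf2 and Sqle lie on chromosome 15, Scap on chromosome 9, Insig1 on chromosome 5, Insig2 on chromosome 1 and Idi1 on chromosome 13 (GENCODE M21 on GRCm38). Scap, Insig2 and Idi1 each overlap an annotated gene on the other strand and Srebf2 overlaps Gm49502 and Mir33, a microRNA gene in its intron, on its own strand. None of these overlapping genes was among the deposited features, so they have no counts of their own here.

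The stretches before the annotated starts of Srebf2, Insig1 and Insig2 are shown because these genes are named as parts of 1 feedback loop yet differed in how their levels ran across the 8 livers. They are RefSeq promoter windows on GRCm38.p6, each ending at the base before the gene's GENCODE start, written 5′ to 3′ on the gene's strand. Capitals mark ATCACCCCA (the core of the sterol regulatory element that SREBPs bind), CACGTG (an E-box) and CCAAT or its reverse complement ATTGG, which NF-Y binds. The Srebf2 stretch is chr15:82147019-82147180 on the plus strand, that of Insig1 is chr5:28071162-28071362 on the plus strand and that of Insig2 is chr1:121332590-121332839 on the minus strand.
Srebf2: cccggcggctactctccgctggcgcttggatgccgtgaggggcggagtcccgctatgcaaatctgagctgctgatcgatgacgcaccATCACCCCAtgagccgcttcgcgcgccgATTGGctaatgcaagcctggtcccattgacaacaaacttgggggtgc
Insig1: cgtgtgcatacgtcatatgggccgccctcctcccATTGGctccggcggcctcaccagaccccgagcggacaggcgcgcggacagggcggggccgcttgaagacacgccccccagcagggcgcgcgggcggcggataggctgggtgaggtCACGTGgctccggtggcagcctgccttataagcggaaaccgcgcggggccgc
Insig2: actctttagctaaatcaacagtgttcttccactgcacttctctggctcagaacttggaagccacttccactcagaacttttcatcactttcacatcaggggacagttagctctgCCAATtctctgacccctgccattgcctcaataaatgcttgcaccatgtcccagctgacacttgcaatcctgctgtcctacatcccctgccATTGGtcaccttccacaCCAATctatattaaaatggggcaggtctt

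The Srebf2 stretch held ATCACCCCA with ATTGG close behind it. Of 32851 promoter windows searched on both strands over 250 bases each, 0.240% held ATCACCCCA, 6.02% held CACGTG and 33.8% held CCAAT. Insig1 held CACGTG and ATTGG, and Insig2 held CCAAT on each strand and no CACGTG. Among the windows of Srebf2, Scap, Insig1, Insig2 and Idi1, ATCACCCCA was found in that of Srebf2 alone. The CACGTG of a further Scap window lies past the GENCODE start and is not shown. Insig2 had 3 windows, of which the one before its GENCODE start is shown, and Sqle and Stard4 had none.

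Among reversed livers, with and without tumour, the sterol carrier and both enzymes had lower summed levels in both tumour-bearing mice than in any tumour-free mouse, and Srebf2 was also lower, by a smaller margin. Scap, Insig1 and Insig2 overlapped between the groups. Thus 4 of 7 genes were lower with no overlap, where 5.85% of the 19087 genes tested were lower with no overlap. Under edgeR's quasi-likelihood test with Benjamini-Hochberg adjustment over all 19087 genes, 0 of 7 were called (0.000% of all genes at an adjusted p under 0.05), and 2 of 7, Idi1 and Sqle, had an unadjusted p under 0.05 in the lower direction, which 2.18% of all genes had. In sums over a library, fewer nuclei of a class and less RNA per nucleus cannot be told apart.

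Srebf2 had 78.6, 87.0 and 82.1 CPM in RD no tumour 1, 2 and 3, and 39.5 and 74.8 CPM in RD tumour 1 and 2. The tumour-free livers lay close together, and most of the group difference came from RD tumour 1. The fitted log2 fold change was -0.62 ± 0.31 (SE; edgeR adjusted p = 0.612), and leaving out RD tumour 1 gave -0.27. Leaving out RD tumour 2 gave -1.10, with an edgeR adjusted p of 0.0350. That fit called 4569 of 19873 genes, and in it RD tumour 1 is a group of 1 mouse whose spread is taken from the other groups.

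Scap, the sterol-sensing escort, had 51.5, 44.6 and 56.1 CPM in the 3 tumour-free livers and 34.5 and 56.8 CPM in RD tumour 1 and 2. One tumour-bearing liver was thus the lowest and the other the highest of these 5. Its log2 fold change was -0.23 ± 0.26 (SE; edgeR adjusted p = 0.721). Over all 8 mice Scap spanned a 1.65-fold range, from RD tumour 1 to RD tumour 2.

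Insig1 had 38.3, 67.2 and 45.7 CPM in RD no tumour 1, 2 and 3 and 73.4 and 55.0 CPM in RD tumour 1 and 2. The liver with the lowest Srebf2 of all 8 therefore had a whole-library Insig1 level above every tumour-free liver. In the hepatocyte gate it did not, at 70.0 CPM against 75.7 CPM in the highest tumour-free liver. The whole-library log2 fold change was 0.29 ± 0.43 (SE; edgeR adjusted p = 0.791), and without RD tumour 1 it was -0.003.

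Insig2 was the regulator that differed most between mice of 1 group. It had 221, 299 and 488 CPM in the tumour-free livers, and 127 and 659 CPM in RD tumour 1 and 2. Those last values were the lowest and the highest of all 8 whole libraries, a 5.19-fold range. In the hepatocyte gate WD tumour 3 was the lowest, at 159 CPM against 182 CPM in RD tumour 1. The whole-library log2 fold change of 0.10 ± 0.66 (SE; edgeR adjusted p = 0.955) averaged mice that lay on opposite sides of the tumour-free livers. Leaving out RD tumour 1 gave 0.82 and leaving out RD tumour 2 gave -1.46.

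Stard4 had 37.3, 40.8 and 42.3 CPM in RD no tumour 1, 2 and 3, and 23.9 and 27.8 CPM in RD tumour 1 and 2. Both groups were tight and did not overlap. The log2 fold change was -0.71 ± 0.33 (SE; edgeR unadjusted p = 0.0624, adjusted p = 0.612), and leaving out RD tumour 1 or RD tumour 2 gave -0.66 and -0.78.

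The enzymes showed the largest differences of the 7. Sqle had 74.6, 45.6 and 28.4 CPM in the tumour-free livers and 13.1 and 15.98 CPM in RD tumour 1 and 2, a log2 fold change of -1.81 ± 0.68 (SE; edgeR unadjusted p = 0.0294, adjusted p = 0.612). Idi1 had 46.6, 78.6 and 31.5 CPM against 5.79 and 18.99 CPM, a log2 fold change of -2.16 ± 0.68 (SE; edgeR unadjusted p = 0.0137, adjusted p = 0.612). Both genes spread widely among the tumour-free livers, and every tumour-bearing value lay below that spread. Idi1 was lowest in RD tumour 1: the difference was -1.58 without that mouse and -3.20 with that mouse alone, the latter with an edgeR adjusted p of 0.0400 in the fit of 1 tumour-bearing mouse that called 4569 of 19873 genes. For Sqle the corresponding values were -1.73 and -1.92.

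**Figure D1:**
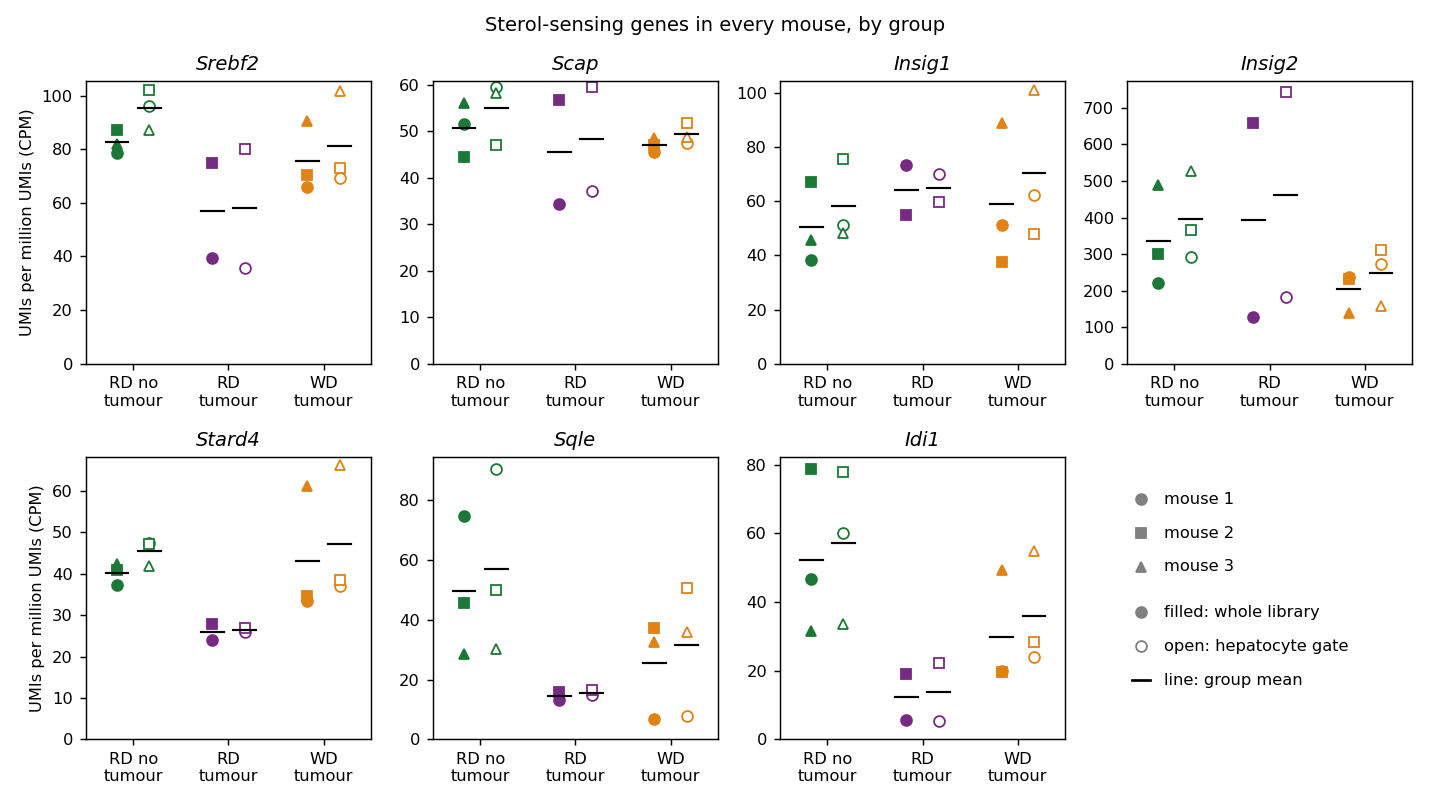
Summed UMIs as CPM (linear axes from 0) of the 7 genes in each of the 8 mice, by group, for the whole library (filled symbols) and the hepatocyte gate (open symbols); the line is the group mean and the symbol shape the mouse number within its group. Stard4, Sqle and Idi1 lay lower in both RD tumour mice than in every RD no tumour mouse, while the RD tumour mice held the lowest and the highest Insig2 of all 8 whole libraries (127 and 659 CPM).

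The same comparison was made over hepatocyte-gated barcodes, which had UMIs of at least 5 of the 12 hepatocyte markers and fewer than 2 markers of every other class. These were 30636 of 79446 barcodes, between 2324 and 6564 per mouse. Srebf2, Stard4, Sqle and Idi1 were again lower with no overlap (4 of 7, where 8.03% of 16203 genes were), and 0 of 7 were called by edgeR (0.000% of all genes). Idi1, Sqle and Stard4 had an unadjusted p under 0.05 in the lower direction, which 3.88% of all genes had.

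Stard4 had 47.5, 47.1 and 41.8 CPM in the hepatocyte gate of RD no tumour 1, 2 and 3 and 25.8 and 26.9 CPM in that of RD tumour 1 and 2. This was the most even of the 4 differences, with a log2 fold change of -1.01 ± 0.30 (SE; edgeR unadjusted p = 0.0104, adjusted p = 0.302). Without RD tumour 1 it was -0.87.

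Idi1 had 60.0, 77.9 and 33.5 CPM against 5.48 and 22.3 CPM in the gate, and Sqle had 90.2, 49.99 and 30.1 CPM against 14.8 and 16.5 CPM. Idi1 in RD tumour 1 rested on 17 UMIs. The log2 fold changes were -2.18 ± 0.69 for Idi1 (SE; edgeR adjusted p = 0.313) and -2.05 ± 0.76 for Sqle (SE; edgeR adjusted p = 0.354). Under DESeq2, Idi1 was the only one of the 7 past the threshold in the gate (adjusted p = 0.0493), where it called 3.19% of all genes. Without RD tumour 1, Idi1 was at -1.47 and Sqle at -1.88.

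Srebf2 had 96.3, 102 and 87.3 CPM in the tumour-free gates, and 35.8 and 80.1 CPM in those of RD tumour 1 and 2. RD tumour 1 was far below and RD tumour 2 just below the tumour-free range. The log2 fold change of -0.90 ± 0.39 (SE; edgeR adjusted p = 0.385) became -0.36 without RD tumour 1, and -1.75 when RD tumour 2 was dropped instead (edgeR adjusted p = 0.0101). Scap, Insig1 and Insig2 overlapped, at -0.39 ± 0.29, -0.08 ± 0.36 and 0.04 ± 0.64 (SE), and Scap was called lower in the gate when RD tumour 2 was left out (-0.91, edgeR adjusted p = 0.0321). That fit, with 1 tumour-bearing reversed mouse, called 5042 of 17212 genes.

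Gating did not make the mice alike. The hepatocyte gate of RD tumour 1 held 18741 CPM of the 12 hepatocyte markers against 26324 to 34834 CPM in the other 7, with 1099 CPM of the 5 neutrophil markers against 13.9 to 202 CPM, and 730 CPM of the 12 macrophage markers against 73.6 to 320 CPM. No hepatocyte or macrophage marker was at 0 in any gate, and all 5 neutrophil markers were found in that of RD tumour 1. Median UMIs per hepatocyte-gated barcode were 2501.5 to 4395 in RD no tumour and 907 to 1024 in the other 5 mice. The part of these in the results was not tested. With library size alone in place of TMM scaling, the median of all genes in the gate moved from -0.06 to 0.17, and the 4 genes kept their direction.

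**Figure D2:**
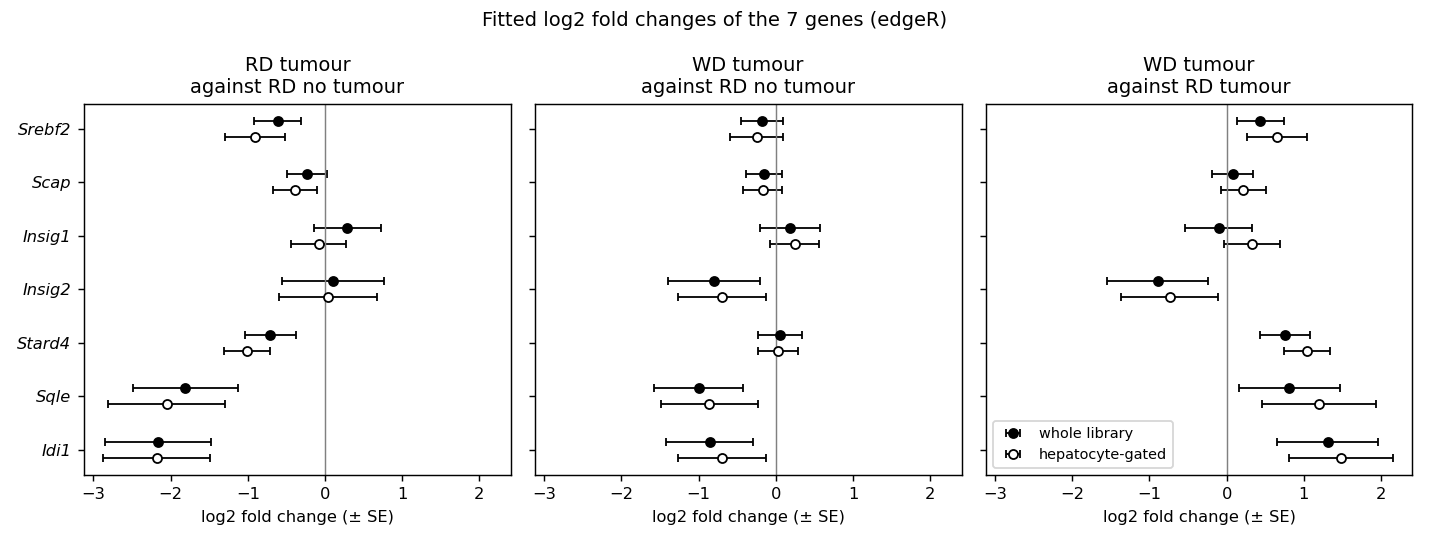
Fitted log2 fold changes (edgeR) of the 7 genes with SE bars for the 3 comparisons, in the whole library (filled) and the hepatocyte gate (open). The left panel shows Idi1 and Sqle near -2 and Stard4 between -0.71 and -1.01. The middle panel shows the bars of Srebf2, Scap, Insig1 and Stard4 reaching 0. The right panel shows Stard4, Idi1, Srebf2 and Sqle above 0 and Insig2 below 0, with bars that do not reach it.

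Livers kept on the Western diet and bearing tumours were next set against the tumour-free reversed livers. No gene of the 7 separated the groups (0 of 7, where 10.7% of 19087 genes did in either direction), and 0 of 7 were called by edgeR (0.000% of all genes). The regulators Srebf2 and Scap were within 0.18 log2 units of no difference: Srebf2 had 65.9, 70.3 and 90.3 CPM in WD tumour 1, 2 and 3 (log2 fold change -0.18 ± 0.27, SE) and Scap had 45.6, 47.1 and 48.6 CPM (-0.16 ± 0.23, SE). Scap was thus nearly the same in all 3 WD mice.

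Insig2 had 237, 232 and 140.0 CPM in WD tumour 1, 2 and 3, the first 2 within the tumour-free range and the last below it, with a log2 fold change of -0.80 ± 0.60 (SE; edgeR adjusted p = 1.00). Insig1 had 51.3, 37.5 and 88.8 CPM (0.19 ± 0.39, SE). WD tumour 3 had the lowest Insig2 of its group together with the highest Insig1 of all 8 mice.

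WD tumour 3 differed from its group in the target genes as well. Stard4 was at 33.4, 34.6 and 61.2 CPM in WD tumour 1, 2 and 3, and Idi1 at 19.9, 19.6 and 49.4 CPM. Sqle did not follow them: it was at 6.85, 37.2 and 32.4 CPM, so that WD tumour 1 was the low one. The log2 fold changes against RD no tumour were 0.05 ± 0.28 for Stard4, -0.85 ± 0.56 for Idi1 and -0.998 ± 0.574 for Sqle (SE), and without WD tumour 3 Idi1 was at -1.45 and Stard4 at -0.30. In the hepatocyte gate the 7 differences ran from -0.86 ± 0.63 (Sqle) to 0.25 ± 0.32 (Insig1; SE), again with none called (0.000% of all genes) and none separating the groups (12.7% of 16203 genes did). Median mitochondrial shares in that gate were 1.01% to 2.55% in the reversed mice, 5.05% in WD tumour 2 and 11.2% in both other WD mice. Keeping barcodes with at most 5% mitochondrial UMIs left 0 of 7 called.

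Against the reversed tumour-bearing livers, those on continued Western diet had higher Stard4 and Idi1 with no overlap (2 of 7, where 10.4% of 19087 genes were higher with no overlap). In the values given above, Stard4 lay between 33.4 and 61.2 CPM on WD and at 23.9 and 27.8 CPM after reversal, a log2 fold change of 0.76 ± 0.33 (SE; edgeR unadjusted p = 0.0494, adjusted p = 0.590). This Stard4 value was 0.38 without WD tumour 3, 0.71 without RD tumour 1 and 0.83 without RD tumour 2. Idi1 stood at 1.31 ± 0.66 (SE; edgeR adjusted p = 0.590), although WD tumour 1 and 2 were each within 1 CPM of RD tumour 2. This Idi1 value was 0.72 without RD tumour 1, 0.70 without WD tumour 3 and 2.34 without RD tumour 2. In the hepatocyte gate both were again higher with no overlap (8.93% of 16203 genes were), Stard4 by 1.04 ± 0.30 (SE; edgeR unadjusted p = 0.00889, adjusted p = 0.550) and Idi1 by 1.48 ± 0.67 (SE; edgeR adjusted p = 0.550). Without RD tumour 1 the gated Idi1 difference was 0.77, and without WD tumour 3 the gated Stard4 difference was 0.71. The other genes overlapped between the groups. In whole libraries Srebf2 stood at 0.44 ± 0.30, Sqle at 0.81 ± 0.65 and Insig2 at -0.89 ± 0.66 (SE). Insig1 stood at -0.10 ± 0.43 and Scap at 0.08 ± 0.26 (SE). These 3 comparisons share their groups, so their values are not independent of each other.

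Ordered by mean CPM over whole libraries, Idi1 and Sqle ran from RD no tumour (52.2 ± 24.0 and 49.6 ± 23.3, SD, n = 3) through WD tumour (29.7 ± 17.1 and 25.5 ± 16.3, SD, n = 3) to RD tumour (12.4 ± 9.34 and 14.5 ± 2.04, SD, n = 2). Neighbouring groups overlapped, except WD tumour and RD tumour for Idi1. Stard4 ran from WD tumour (43.1 ± 15.7, SD, n = 3) through RD no tumour (40.2 ± 2.56, SD, n = 3), which overlapped it, to RD tumour (25.9 ± 2.78, SD, n = 2), which did not. Srebf2 ran from RD no tumour (82.6 ± 4.26, SD, n = 3) through WD tumour (75.5 ± 13.04, SD, n = 3) to RD tumour (57.1 ± 24.9, SD, n = 2), with both neighbouring pairs overlapping.

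Regulators and targets were then set against each other within each mouse, as the log2 ratio of their UMIs in the hepatocyte gate, which depth and scaling leave unchanged. Idi1 over Srebf2 was -0.68, -0.39 and -1.38 in RD no tumour 1, 2 and 3, and -2.67 and -1.84 in RD tumour 1 and 2. In these mice Idi1 was therefore lower also relative to the gene of its regulator, with no overlap between the reversed groups. The share of all genes whose ratio to Srebf2 separates these groups was not computed, so how unusual this is is not known. The WD tumour mice lay at -1.52, -1.36 and -0.89, 1 of them just below the tumour-free range. Sqle over Srebf2 overlapped, at -0.09, -1.03 and -1.53 in the tumour-free and -1.26 and -2.28 in the tumour-bearing reversed mice. The lowest value of all was in WD tumour 1, at -3.14.

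The ratio of the INSIG genes set the mice apart in another way. Insig2 over Insig1 was 2.51, 2.27 and 3.45 in RD no tumour 1, 2 and 3. It was 1.38 and 3.63 in RD tumour 1 and 2, below and above that range. In WD tumour 1, 2 and 3 it was 2.13, 2.69 and 0.65. RD tumour 1, WD tumour 1 and WD tumour 3 thus lay below all 3 tumour-free mice.

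The other 17 sterol synthesis enzymes tested, from acetoacetyl-CoA formation to the last reductases, had lower fitted levels in the tumour-bearing reversed livers than in the tumour-free ones in the hepatocyte gate, 17 of 17 by sign (53.0% of all genes), with a median log2 fold change of -1.20 against -0.06 over all genes. Of these, 12 were lower with no overlap (8.03% of all genes), 10 had an unadjusted p under 0.05 (3.88% of all genes) and 0 were called by edgeR. DESeq2 called 3 (Fdps, Fdft1 and Msmo1, named after their values were seen), where it called 3.19% of all genes. The list was compiled with results of these samples known, so it is not independent evidence of its direction. Fdft1, squalene synthase, had the lowest value of the list, at -2.005 ± 0.460 (SE; edgeR adjusted p = 0.247), from 54.5, 39.2 and 64.0 CPM in the tumour-free gates to 11.3 and 18.6 CPM. Hsd17b7, a later reductase, was nearest 0 at -0.23 ± 0.28 (SE). Per mouse, the median enzyme lay at -1.39 and -0.89 in RD tumour 1 and 2 relative to the tumour-free mean, at -0.67, -0.54 and 0.23 in WD tumour 1, 2 and 3, and between -0.20 and 0.16 in the tumour-free mice. In WD tumour against RD no tumour, 15 of the 17 were lower by sign (50.6% of all genes) with a median of -0.20, and 1 was lower without overlap (5.83% of all genes). Cyp51, the lanosterol demethylase, was lowest at -0.86 ± 0.33, and Sc5d, a sterol desaturase, was highest at 0.32 ± 0.25 (SE). In WD tumour against RD tumour, 1 of the 17 was lower by sign (49.1% of all genes), with a median of 0.99 against 0.01 over all genes. Of the 17, 9 were higher and 1 lower without overlap, where 1447 and 2772 of 16203 genes were, and 0 were called by edgeR.

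For genes that process or degrade the sensors, the median over 11 of 12 listed genes was -0.11 for RD tumour against RD no tumour in the gate, with 7 of 11 lower by sign (53.0% of all genes), 1 higher (17.9% of all genes) and 0 lower without overlap, and 0 called. The difference between this list and the enzymes was not tested. Rnf145, a ubiquitin ligase that acts on SCAP, was highest, with 26.1, 18.5 and 12.8 CPM in the tumour-free gates and 64.2 and 27.4 CPM in RD tumour 1 and 2 (1.01 ± 0.39, SE; edgeR adjusted p = 0.366). When the WD mice were set against RD no tumour the median was -0.05, with 1 gene higher and 1 lower without overlap (6.90% and 5.83% of all genes). Srebf1 was the highest gene on the list there. It encodes the SREBP1 factors of fatty acid synthesis, which do not themselves process or degrade the sensors. It had 73.8, 28.3 and 62.0 CPM in WD tumour 1, 2 and 3 against 15.9, 17.9 and 12.3 CPM in the tumour-free gates, a log2 fold change of 1.82 ± 0.41 (SE; edgeR unadjusted p = 0.00246, adjusted p = 0.849; DESeq2 adjusted p = 0.0394). Srebf2 in the same gates differed by -0.25 ± 0.34 (SE).

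For lipoprotein uptake and sterol transport the 19 genes had a median of -0.08 in RD tumour against RD no tumour, with 4 lower and 5 higher without overlap (8.03% and 17.9% of all genes) and 0 called by edgeR. DESeq2 called 2 of the 19, where it called 3.19% of all genes. Dab2, an endocytic adaptor, was highest, from 7.90, 1.98 and 4.35 CPM to 61.0 and 9.03 CPM (2.60 ± 0.77, SE; edgeR adjusted p = 0.302), with RD tumour 1 far above the rest. Stard5, a cholesterol-binding relative of Stard4, was lowest: it had 330.2, 338 and 317 CPM in the tumour-free gates and 143 and 216 CPM in RD tumour 1 and 2 (-1.08 ± 0.34, SE; edgeR adjusted p = 0.311). Against RD no tumour, WD tumour had a median of 0.02 over the list, with Vldlr, a lipoprotein receptor, highest (1.56 ± 0.85, SE) and Osbpl2, an oxysterol-binding protein gene, lowest (-0.62 ± 0.30, SE).

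Of the export and storage genes, 9 of 10 were tested in the gate, with a median of -0.26 for RD tumour against RD no tumour, 3 higher and 0 lower without overlap (17.9% and 8.03% of all genes) and 0 called by edgeR. DESeq2 called 2 of the 9, where it called 3.19% of all genes. In CPM without TMM scaling, the list's median gene in RD tumour 1 and 2 lay above the tumour-free mean, at 0.46 and 0.19, so its direction depends on how it is taken. Abcg1, a sterol exporter abundant in macrophages, was at 10.6, 4.04 and 5.65 CPM in the tumour-free gates, and at 178 and 11.2 CPM in RD tumour 1 and 2 (3.52 ± 1.07, SE; edgeR adjusted p = 0.303). Its high value fell in the mouse with the highest macrophage marker sum in this gate, and the part of that in the result was not tested. Soat2, which esterifies cholesterol for storage, was lowest (-1.33 ± 0.62, SE; edgeR adjusted p = 0.394). In WD tumour against RD no tumour the median was 0.29, with Cyp46a1, a cholesterol hydroxylase, highest (1.44 ± 0.91, SE) and Abcg8, a canalicular sterol exporter, lowest (-0.14 ± 0.46, SE).

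**Figure D3:**
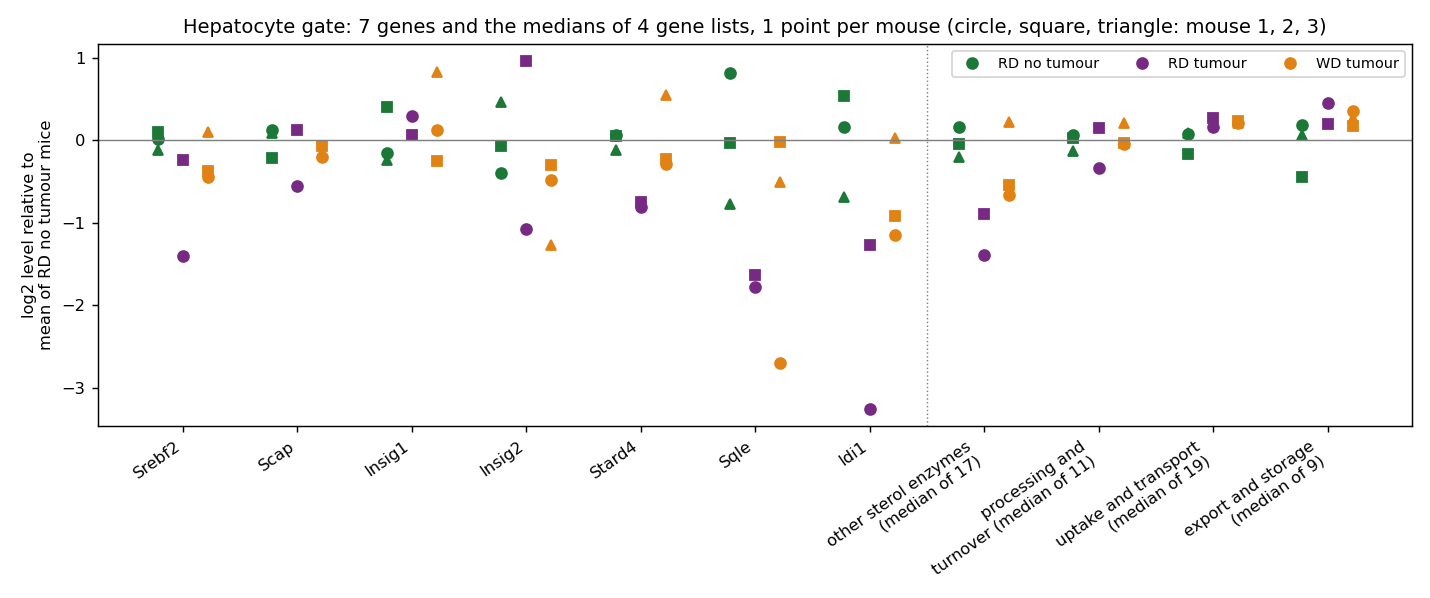
Log2 level in the hepatocyte gate relative to the mean of the 3 RD no tumour mice, 1 point per mouse, for the 7 genes (left of the dotted line) and for the median gene of 4 pathway lists (right). The median of the 17 other enzymes was at -1.39 and -0.89 in the RD tumour mice, below all 3 RD no tumour mice, while the medians of the other 3 lists lay between -0.45 and 0.46 in all mice.

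Cell classes were compared within mice, each gated class against the hepatocyte gate of the same animal, by an exact two-sided sign-flip permutation test over 7 or 8 mice with Benjamini-Hochberg adjustment over 42 tests. Of these, 14 passed, all with the gene lower outside the hepatocyte gate. Only the 7 genes were tested in this way, so the share of all genes that would pass is not known. Insig2 passed in 5 of 6 classes: its mean log2 difference was -0.42 ± 0.19 (SD, n = 8) in the endothelial gate, -0.81 ± 0.30 (SD, n = 8) in the stellate and fibroblast gate, -0.51 ± 0.18 (SD, n = 8) in the macrophage gate, -0.56 ± 0.29 (SD, n = 7) in the T and NK cell gate and -0.91 ± 0.32 (SD, n = 7) in the B cell gate. It was lower in every mouse in these 5 (exact adjusted p = 0.0469 in each). In the cholangiocyte gate it was -0.17 ± 0.20 (SD, n = 7; exact adjusted p = 0.114). With 8 mice the smallest unadjusted p this test can give is 0.0078, and with 7 it is 0.0156.

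The other regulators and Sqle passed in fewer classes. Insig1 was lower in the endothelial (-0.31), stellate and fibroblast (-0.61), macrophage (-0.42) and T and NK cell (-0.39) gates. Srebf2 was lower in the endothelial (-0.39) and stellate and fibroblast (-0.52) gates, Scap in the endothelial gate (-0.20), and Sqle in the endothelial (-0.33) and macrophage (-0.22) gates. Stard4 and Idi1 passed in none of the 6. With any 1 mouse other than RD tumour 1 left out, 0 of 42 passed, and without RD tumour 1 the count was 14. RD tumour 1 was already absent from the cholangiocyte, T and NK cell and B cell gates. Fewer mice raise the smallest p the test can give, so the counts of 0 cannot show whether a difference rests on 1 mouse. With 2 UMIs added before the log in place of 0.5, 0 passed.

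The gates were not pure. Each class held its own markers at mean log2 differences of 3.62 to 6.62 above the hepatocyte gate. The 12 hepatocyte markers together were on average at -0.07 to -0.36 log2 units from it in the 6 classes, and 18795 barcodes meeting more than 1 gate of the other classes had been left out as mixed. Relative to that sum, Insig2 was still lower in 8 of 8 mice in the stellate and fibroblast gate and in the macrophage gate, in 7 of 7 in the T and NK cell gate and in the B cell gate, and in 7 of 8 in the endothelial gate. Some single hepatocyte markers differed as far as Insig2 or further, and others were near 0 or higher than in the hepatocyte gate. Cps1, a urea cycle enzyme chosen here after its values were seen, was at -0.63 in the endothelial, -1.07 in the stellate and fibroblast, -0.55 in the macrophage, -1.18 in the T and NK cell and -1.17 in the B cell gate, below Insig2 in each. Ttr, another of the 12 and also chosen after its values were seen, was at -0.06, 0.03, 0.01, 0.29 and 0.23 in the same order. The differences of Insig2 therefore lie within the range of single hepatocyte markers. RNA from outside the nucleus counted can enter each of these values, so they are no measure of how much a class itself expresses.

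In the endothelial gate Insig2 had 126 and 641 CPM in RD tumour 1 and 2, against 177, 237 and 465 CPM in RD no tumour 1, 2 and 3 and 208, 239 and 127 CPM in WD tumour 1, 2 and 3. In the macrophage gate the values were 122 and 642 CPM, 197, 262 and 365 CPM, and 153, 216 and 124 CPM in the same order. RD tumour 2 was thus the highest mouse in both, and RD tumour 1 the lowest. In the T and NK cell gate RD no tumour 3 was the highest, at 486 CPM against 459.8 CPM in RD tumour 2.

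**Figure D4:**
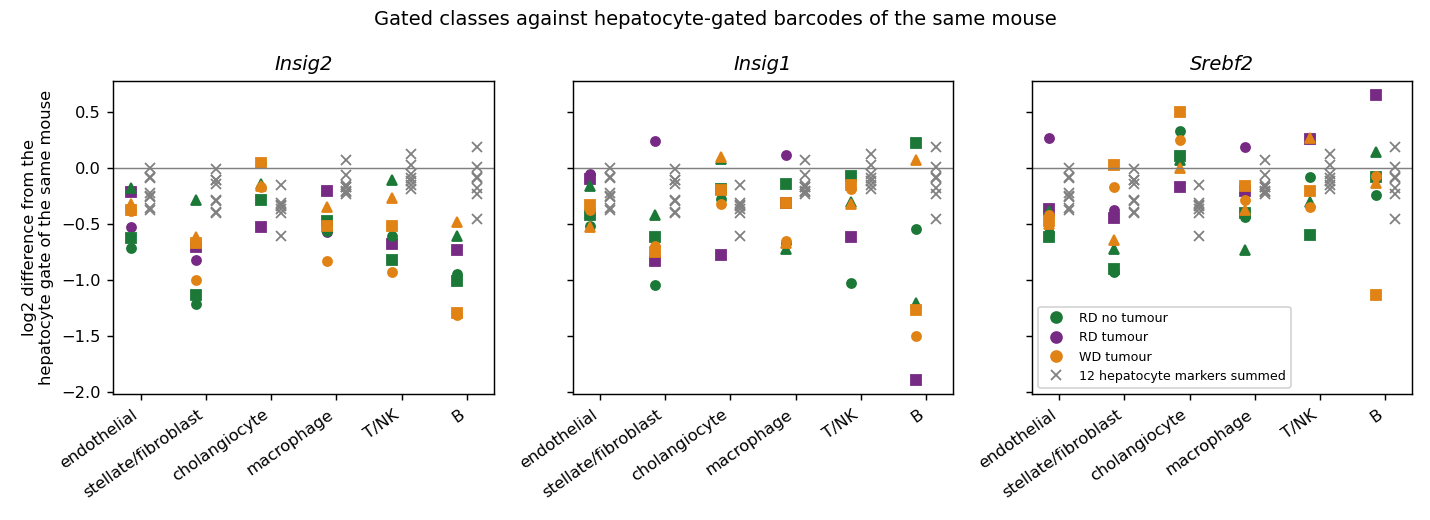
Log2 difference of each gated class from the hepatocyte gate of the same mouse for Insig2, Insig1 and Srebf2 (coloured points, 1 per mouse), beside the same difference for 12 hepatocyte markers summed (grey crosses). Insig2 points lie below 0 in every mouse in 5 classes, with means from -0.42 to -0.91. The marker sums have means from -0.07 to -0.36 over the 6 classes. Some single markers, not drawn, reach further, and others lie near or above 0.

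Over the 8 whole libraries, the genes most like each of the 7 were ranked by Pearson r of log2 CPM among 10459 genes with a mean of at least 10 CPM. These r describe 8 points that share their library and its depth, of which RD tumour 1 stands apart. Prepl was most like Srebf2 (r = 0.994, and 0.959 over the 7 libraries without RD tumour 1), Nedd4l most like Insig2 (0.961 and 0.949) and Ipp most like Stard4 (0.952 and 0.925), and these 3 stayed first without RD tumour 1. The next for Stard4 were Fdft1 (0.920) and Hmgcs1 (0.917), both sterol synthesis enzymes, whereas without RD tumour 1 they were Prpf3 (0.909) and Gmps (0.889). For Idi1, Btf3l4 came first (0.963) and Tm7sf2, a sterol reductase, was among the next (0.942). Camta2 was first for Scap (0.985), Sarnp for Insig1 (0.954) and Slc15a2 for Sqle (0.916), and these 3 and Btf3l4 were no longer first over 7 libraries.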

How the data were processed

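Nuclear RNA of 8 livers was measured, 1 Chromium 3′ v3.1 library per mouse. The authors deposited gene-by-barcode matrices of raw UMI counts. Per the file headers these came from Cell Ranger 7.0.0, and the submitters' processing notes name mm10 as the build. Whether intronic reads were counted, and how barcodes were called, is not given in the sources used here. Pooling of animals is not stated, and p-values measure the spread between these libraries.

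The 7 genes and all lists were chosen with earlier results of these data known. Barcodes with at least 300 genes were kept (79446). A gate needed UMIs of at least 5 of 12 hepatocyte markers, or 2 markers of another class. No doublet caller was run; barcodes meeting more than 1 non-hepatocyte gate were set aside. Counts were summed per mouse, and a class was used in mice with at least 20 such barcodes. One model of all 3 groups was fitted to each set of sums (edgeR 4.0.16 in R 4.3.3, TMM, filterByExpr, Benjamini-Hochberg over all genes tested, threshold 0.05). The SE was the log2 fold change divided by the square root of the F statistic. Class ratios had 0.5 UMI added. DESeq2 1.42.0, library size alone, no filter, 500 genes, 5% mitochondrial UMIs, stricter gates, 2 UMIs, a replicate block and leaving out each mouse were alternatives. Besides the 7, the text names the highest and lowest gene of each list in 2 contrasts and the genes most like each of the 7. Not every gene this rule picks is reported here. The labels were not taken to pair same-numbered mice. Their deviations from the group means correlated at r from -0.50 to 0.43, over 0.1 in 3 of 7 pairs. This cannot decide whether the numbers pair mice, because deviations within a group are tied and those of the RD tumour mice are exact opposites. On simulated counts for RD tumour against RD no tumour (200 changed genes), the whole-library fit over 19087 genes recovered 6% of 100 genes changed 4-fold and 71% of 100 changed 16-fold. In the gate, over 16203 genes, it recovered 7% and 72%. The libraries held 17948627 to 34363108 UMIs.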

Additional observations from a re-analysis of the deposited data

Results flagged for a closer look

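RD tumour 2 held 254 barcodes that met the pancreatic acinar gate, a class outside the comparisons made here, where the other 7 mice held 0. Its whole-library sum of the 5 acinar markers was 279 CPM and that in its hepatocyte gate was 139 CPM, against 2.26 to 9.43 CPM in the gates of the other 7. RD tumour 2 was also the mouse with the highest Insig2, at 659 CPM over the whole library and 743 CPM in the hepatocyte gate. Whether the acinar RNA has a part in that value was not tested.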

How the results depend on the processing

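For the 7 genes, 315 recomputed whole-library fold changes kept direction and side of the threshold in 299 cases, passed it in 2 and changed sign while below it in 14. In the hepatocyte gate these numbers were 334, 6 and 17 of 357. Of 532 recomputed class differences, 373 kept both, 123 lost the call, 17 gained it and 19 changed sign while not called.

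edgeR called 0 genes in each of the 6 comparisons (unadjusted p under 0.05: 1279, 524 and 1443 of 19087 in whole libraries and 2104, 649 and 1435 of 16203 in the gate, in the order tumour-bearing against tumour-free reversed mice, WD against tumour-free reversed mice, WD against tumour-bearing reversed mice). DESeq2 called 75, 34 and 123 in whole libraries and 538, 58 and 101 in the gate. Leaving out 1 mouse gave 0 to 4569 calls (whole) and 0 to 5042 (gate) for the first of these, and 0 to 4438 and 0 to 3870 for the last. The highest values came without RD tumour 2, when RD tumour 1 stands alone and is assumed to vary like the other groups. Without RD tumour 1 the counts were 11 and 2, and 0 and 2. The replicate block gave 0 calls in all 6 and changed no call on the 7 genes. Class differences numbered 14, and 0 with 2 UMIs added, 9 at no more than 5% mitochondrial UMIs, 16 without the neutrophil gate (chosen after seeing the data) and 20 with stricter gates. The stricter gates asked for 7 hepatocyte markers or 3 of another class. Barcodes with 2 markers of another class could then enter the hepatocyte gate, which grew from 2605 to 5306 barcodes in RD tumour 1. Leaving out 1 mouse gave 0 to 14, where 7 mice allow no unadjusted p below 0.0156 and fewer mice raise that limit. The causes were not tested.

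Of the 7, calls appeared only in edgeR fits without RD tumour 2 (Srebf2 and Idi1 in both sums, Scap in the gate, all among reversed mice, and Srebf2 and Idi1 in the gate against the WD mice) and for Idi1 in the gate under DESeq2. Depth in the gate was a limit: RD tumour 1 had 17 Idi1 and 46 Sqle UMIs there.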
